A study of Sciaenops ocellatus with 24 samples.

Results

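The unexposed larvae of an oil study in red drum (Sciaenops ocellatus), a marine fish, are described here from 6 of the study's 24 small RNA libraries. They are the 3 controls of the slick oil experiment and the 3 controls of the source oil experiment, chosen by their labels and joined on the miRNA names that both control sets list. All 6 libraries came from pools of whole larvae at 48 hours post fertilization with an oil concentration of 0. The labels give the tissue as whole larva and the source as whole embryo. The other 18 libraries came from larvae in weathered slick oil of the Gulf surface (1.25, 2.50 or 5.00%) or in a pipeline oil used in place of Deepwater Horizon source oil (0.135, 0.27 or 0.54%), both blended into seawater, with 3 libraries per group. Embryos of every group, the controls too, came from brood stock tanks, were treated with formalin for 1 h and were rinsed in sterilized seawater, per the labels. How many larvae made a pool, and which spawn, tank or library batch each library belongs to, is not given in the sources used here. Experiment and any such batch therefore cannot be told apart, and a p-value reflects only how these libraries spread, which may be technical.

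MicroRNAs are short RNAs that pair with messenger RNAs, mostly through a seed near the 5′ end, and lower their translation or stability. Many vertebrate miRNAs are tied to 1 tissue, so in a whole larva their levels follow the tissues that are present and how far these have developed. At this age red drum have hatched, with a beating heart, trunk muscle, eyes and a patterned brain. In such bulk samples fewer cells of a type and less miRNA per cell cannot be told apart.

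Library totals ran from 8000563 to 8535913 counts in the slick and from 6778108 to 9404688 counts in the source controls. Names listed in 1 table alone numbered 53 in the slick and 57 in the source table, and all others stood in both. These shared names held 81.4% to 96.7% of the counts of the slick controls and 70.8% to 89.9% of those of the source controls. A name is a mature miRBase entry of some species (ola is medaka, dre zebrafish, ssa Atlantic salmon), and it stands below for the reads counted under it. Of the shared names 117 were counted in all 6 libraries, and 113 of these also had at least 10 counts in at least 3 libraries and were tested. Every name of a table had at least 1 count in control 1 of its experiment, and no name was listed at 0 there. Mature miRNAs are nearly of 1 length. A share is that of a name and not of a miRNA, since reads of 1 miRNA may be split between names or counted under several, and any order of shares below is an order of names.

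Names of nerve and muscle miRNAs held the largest shares of the unexposed profile. Shares below are percent of the counts over the shared names, with the SD over libraries. aca-miR-9-5p, of a brain miRNA family that acts in neural progenitors, took 33.9%, 36.5% and 36.4% in the slick controls, against 27.3%, 26.4% and 28.7% in the source controls. The slick controls all lay above the source controls. ssa-miR-206-5p, made in skeletal muscle, took 17.6%, 16.5% and 16.7% in the slick controls, against 19.6%, 23.3% and 24.2% in the source controls, with the slick controls all below. Over the totals of all names of each table the values of ssa-miR-206-5p overlapped between the sets, and those of aca-miR-9-5p did not. These 2 names together held 52.5% of the slick and 49.8% of the source control counts, the first 10 names 79.2% of the slick and 78.5% of the source control counts and the first 20 names 87.8% of the slick and 87.8% of the source control counts. The first 50 names held 97.4% of the slick and 97.5% of the source control counts.

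Behind the leading pair the order of levels was flat in places. Names listed in 1 table alone are not in this order. In controls 1 and 3 aca-miR-26-5p (slick) and cgr-miR-26a (source) had more counts than ola-miR-21. So did chi-miR-183 in source controls 1 and 3. ola-miR-21, whose family responds to tissue damage in many vertebrates, took 6.07% ± 0.616 over the 6 libraries (SD, n = 6), and the neuronal mdo-miR-128a-5p 6.05% ± 1.5. These 2 neighbours did not differ beyond their spread. ola-miR-181a-5p followed with 3.94% ± 0.681 and its relative cfa-miR-181b with 1.49% ± 0.209. chi-miR-182, part of a cluster that works in hair cells and photoreceptors, had 2.35% ± 0.109 in the slick and 2.77% ± 0.175 in the source controls (SD, n = 3 each), and the 2 sets of values did not overlap. Over the totals of all names of each table its values did overlap. sha-miR-92a (1.44% ± 0.348), the skin miRNA pma-miR-203a-3p (1.33% ± 0.0608) and ssa-miR-18a-5p (1.29% ± 0.17) overlapped one another.

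The next names came from eye, epithelium, connective tissue, pancreas and vessels, with mean shares under 1%. sha-miR-200a, an epithelial miRNA, took 0.937% ± 0.128 in the slick and 0.761% ± 0.0851 in the source controls. ola-miR-184-5p, a miRNA of lens and cornea, took 0.688% ± 0.0571 in the slick and 0.993% ± 0.156 in the source controls, and ola-miR-204, found in lens and pigment epithelium, 0.753% ± 0.183 in the slick and 0.92% ± 0.0582 in the source controls. The miR-204 values overlapped between the sets and the miR-184 values did not. Over the totals of all names of each table both overlapped. tca-let-7-5p and mse-let-7a each took 0.843% over all 6 libraries; their counts are nearly the same and stand for 1 signal. aca-miR-199a-5p, a miRNA of connective tissue and cartilage precursors, took 0.909% ± 0.14 in the slick and 0.563% ± 0.0477 in the source controls. ipu-miR-375 of pancreatic islets took 0.535% ± 0.047 in the slick and 0.888% ± 0.108 in the source controls, and the endothelial tgu-miR-126-5p 0.709% ± 0.0965 in the slick and 0.627% ± 0.0534 in the source controls. The plot of shares by library shows all 20 leading names.

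Summed by tissue list over the shared names, the nervous system list of 17 names held 45.3% ± 4.87 in the slick and 38.1% ± 2.97 in the source controls and the muscle list of 3 names 17.5% ± 0.488 in the slick and 22.8% ± 2.51 in the source controls (SD, n = 3 each). Eye and sensory organs held 6.22% ± 2.72 in the slick and 7.88% ± 4.54 in the source controls, a wide spread that comes with mmu-miR-183-5p, counted in control 1 alone. Skin and epithelia held 2.62% ± 0.292 in the slick and 2.42% ± 0.0988 in the source controls, and blood cells and vessels 2.42% ± 0.261 in the slick and 2.15% ± 0.145 in the source controls. The let-7 list held 1.95% ± 0.407 in the slick and 3.02% ± 0.213 in the source controls, and the fish miRNA list 0.427% ± 0.0347 in the slick and 0.809% ± 0.0704 in the source controls. Liver and gut names held 0.0335% ± 0.00535 in the slick and 0.0386% ± 0.00193 in the source controls. The liver miRNA miR-122, and miR-192 of the same list, had no name shared by both tables and are not in these shares. Pancreas and endocrine names held 0.764% ± 0.0623 in the slick and 1.08% ± 0.0818 in the source controls, and cartilage and connective tissue names 1.52% ± 0.327 in the slick and 1.09% ± 0.308 in the source controls. Every shared name has counts in control 1 of both sets, so that each list was counted in both follows from the choice of names. These sums hold names at 0 in some libraries and names that repeat the counts of another. In the nervous system list ola-miR-128 repeats mdo-miR-128a-5p in controls 1 and 2 of both sets and is at 0 in control 3, and in the let-7 list tca-let-7-5p repeats mse-let-7a while aca-let-7b-5p is at 0 in slick control 2 and source control 3. Over names counted in all 6 libraries, with 1 name of each near-identical set (chosen after seeing the data), the nervous system list held 41.6% ± 3.07 in the slick and 34.2% ± 2.09 in the source controls, the let-7 list 1.1% ± 0.145 in the slick and 1.73% ± 0.0727 in the source controls and the eye and sensory organ list 4.41% ± 0.408 in the slick and 5.08% ± 0.331 in the source controls. Cartilage and connective tissue names held 1.13% ± 0.164 in the slick and 0.738% ± 0.0698 in the source controls by that count.

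**Figure D1:**
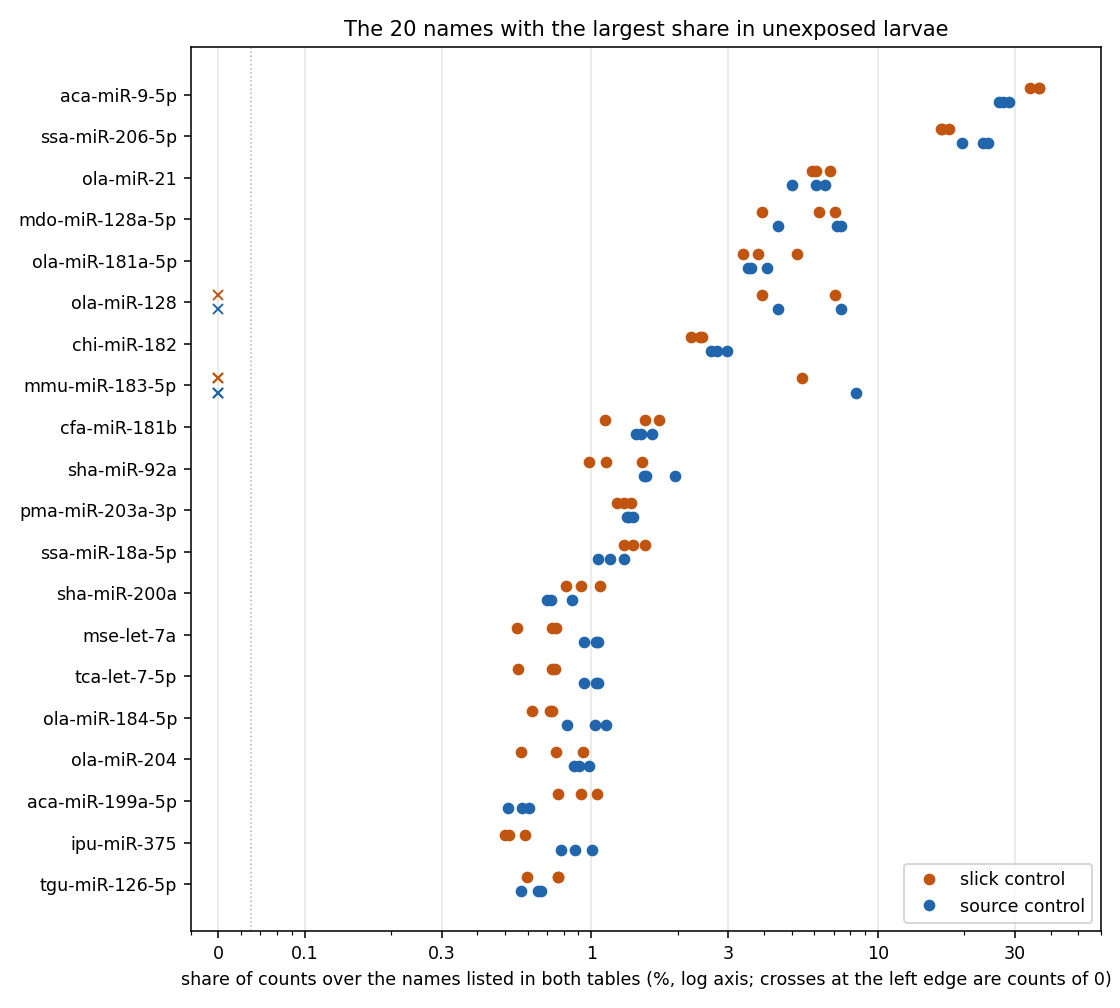
Share of counts (percent over the shared names, log axis) of the 20 names with the largest mean share, 1 point per control library, slick controls above source controls in each row; crosses mark counts of 0. aca-miR-9-5p lies at 33.9% to 36.5% in the slick and 26.4% to 28.7% in the source controls, and mmu-miR-183-5p and ola-miR-128 are at 0 in some libraries of both sets.

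Several abundant names were counted in some libraries of a set and at 0 in others of the same set. There were 26 such names among the shared ones, all of them counted in control 1, and 19 of these had a mean count of at least 100. ola-miR-128 had 261002, 546953 and 0 in the slick controls, against 297954, 469403 and 0 in the source controls. Where it was counted it matched mdo-miR-128a-5p almost read for read, and where it was at 0 that name still had 460802 counts in slick control 3 and 387819 in source control 3. In those 2 libraries miR-128 was counted under that name and not under ola-miR-128.

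For other miRNAs a second name was lacking in some of the libraries. mmu-miR-183-5p, of the same sensory cluster as miR-182, had 358399, 0 and 0 in the slick controls, against 558732, 0 and 0 in the source controls. chi-miR-183, listed for the source experiment alone, had 558998, 0 and 472059 counts there. In slick controls 2 and 3 mmu-miR-183-5p was at 0 and chi-miR-183 was not listed, so the level of miR-183 there is not known here. Source control 2 had 0 counts under either name. chi-miR-182 was counted at 173622 in that library. aca-miR-143-5p, a smooth muscle miRNA, had 29878, 0 and 0 in the slick controls, against 25032, 0 and 0 in the source controls, and aca-miR-140-5p, a cartilage miRNA, 19847, 0 and 31354 in the slick controls, against 20801, 0 and 18448 in the source controls. ccr-miR-724 had 38579, 0 and 49249 in the slick controls, against 60516, 0 and 47075 in the source controls, aca-let-7b-5p 18220, 0 and 19464 in the slick controls, against 26699, 26616 and 0 in the source controls, and fru-miR-30c 6458, 0 and 8921 in the slick controls, against 9673, 0 and 10688 in the source controls. Of the 19 names 12 were at 0 in both sets, 8 of them in the same replicate numbers of both (ola-miR-128, mmu-miR-183-5p, ccr-miR-724, aca-miR-140-5p, aca-miR-143-5p, fru-miR-30c, ppy-miR-7 and fru-miR-15b) and 4 in other numbers. No zero lay in control 1. Over the 19 names there were 42 zeros, and in 12 of them another name of the same miRNA number and letter had at least 100 counts in that library. That match misses names that differ in the letter alone, such as mdo-miR-128a-5p beside ola-miR-128 and ola-miR-430a beside ccr-miR-430. The remaining zeros are thus not known to lack another name. A count of 0 allows up to 3 counts, which is a share of at most 5.57e-05% in the shallowest of these libraries (counting error only). None of these 26 names was in the main test between the sets. The list shares over the shared names, given above, do hold those of them that belong to a list.

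Of the names listed for the slick experiment alone 51 of 53 had their miRNA number listed under another name in the source table, and of those listed for the source experiment alone 56 of 57 had it in the slick table. The exceptions, chi-miR-1388-5p and dre-miR-2184 in the slick table and ssa-miR-1338-5p in the source table, were all rare (named after their values were seen). Among the abundant ones, aca-miR-26-5p had 501772, 7930 and 767498 counts in the slick controls, while cgr-miR-26a had 497902, 0 and 494341 in the source controls. tch-miR-122-5p, the liver miRNA, was steady at 79038, 90871 and 78041 in the slick controls. In the source table miR-122 stood under cgr-miR-122, with 79408, 0 and 0 counts. dre-miR-203b-5p had 146319, 0 and 0 counts in the slick controls, and ipu-miR-203b 151462, 134457 and 110053 in the source controls. The abundant names of miR-26, miR-122 and miR-203b thus differed between the 2 experiments, and each miRNA had such a name at 0 in some libraries of 1 set. For miR-26 the other set fell too, to 7930 in slick control 2, the replicate number of the 0 in the source controls. The shared name rno-miR-203b-5p was tested and not called between the sets (log2 difference 0.12, adjusted p = 0.794, edgeR). It was rare: in slick control 2 all miR-203 names together had 95019 counts, and pma-miR-203a-3p alone had 95004 of them. Its result therefore does not speak for the abundant miR-203b names. The epithelial ssa-miR-200a-2-5p had 87474, 94972 and 112269 counts in the slick controls beside the shared sha-miR-200a.

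ssa-miR-22a-5p had 108584, 121980 and 98725 counts in the source controls and was listed in none of the slick tables. ola-miR-218b likewise had 66772, 62507 and 56484 counts in the source controls and was not listed in the slick table, while the shared ipu-miR-218a had 58260, 37095 and 32634 in the slick controls, against 23429, 0 and 19951 in the source controls. Counts of ipu-miR-216b (159182, 0 and 0 in the slick controls) and fru-miR-216b (132869, 129580 and 0 in the source controls), names of a pancreatic miRNA, also broke off within a set. The heart and skeletal muscle miRNA miR-1 was listed as aca-miR-1a-1-5p with 108155, 0 and 0 counts in the slick controls and as tgu-miR-1-2-5p with 100144, 0 and 0 in the source controls. Both names had counts in control 1 alone, so the muscle share above lacks miR-1. The comparison below uses names counted in all 6 libraries.

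**Figure D2:**
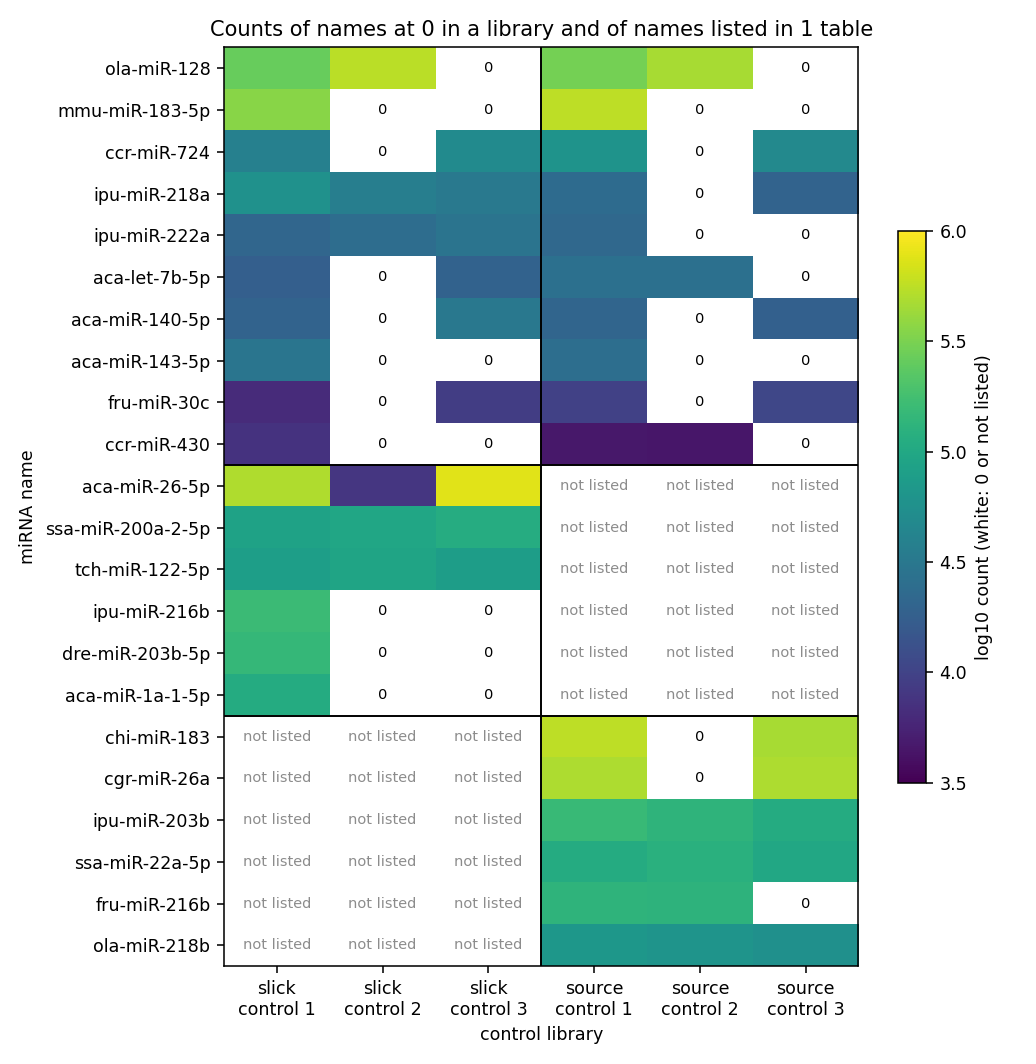
Counts per control library (colour, log10 scale; white cells are 0 or not listed) of the 10 most abundant shared names with a 0 and of the 6 most abundant names listed for the slick or for the source experiment alone. Control 1 of each set has no 0 among the shared names, while mmu-miR-183-5p and aca-miR-143-5p are at 0 in controls 2 and 3 of both sets.

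The unexposed larvae of the 2 experiments differed in 52 of the 113 tested names, a background of 46% (edgeR quasi-likelihood test, Benjamini-Hochberg adjusted p under 0.05). In the slick controls 24 names (21.2%) were higher and 28 (24.8%) lower than in the source controls, n = 3 against 3. All log2 differences below are slick control minus source control, with their SE, and levels are TMM-scaled CPM, counts scaled to the library total over the tested names. Most differences were moderate: the median absolute log2 difference was 0.40 and 5 names passed 1. The 3 slick and 3 source values did not overlap for 64 names (56.6%), 51 of them among the 52 called. Under raw library totals of the whole tables the median over all names moved to 0.28, from 0.05 in the TMM fit, with 23 names called higher and 8 called lower. Under totals without aca-miR-9-5p and ssa-miR-206-5p, chosen after seeing the data, the median was 0.20 and the split 32 higher and 22 lower. Of the 52 calls 30 were kept under the whole-table totals and 48 with DESeq2. The whole-table totals hold names with nearly the same counts, unevenly by library. In source control 1 mmu-miR-183-5p had 558732 and chi-miR-183 558998 counts, and both had 0 in source control 2. No name among the 52 had the opposite sign under any of the 4 other scalings.

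Replicates of a set resembled each other more than the other set. The median absolute log2 difference between 2 libraries was 0.11 to 0.31 within a set and 0.33 to 0.44 between sets. The first principal component of log2(CPM + 1) held 69.1% of the variance and put the slick controls at 1.61 to 3.89 and the source controls at -2.94 to -2.44. The slick controls spread more widely, with a median coefficient of variation of 14.3% against 8.46% in the source controls, and with the larger value in the slick set for 79 of the 113 names. The count of calls rested in part on 1 library: it was 28 without source control 2, and 38 to 55 without any other library. There were 27 names called in each of these 6 fits.

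**Figure D3:**
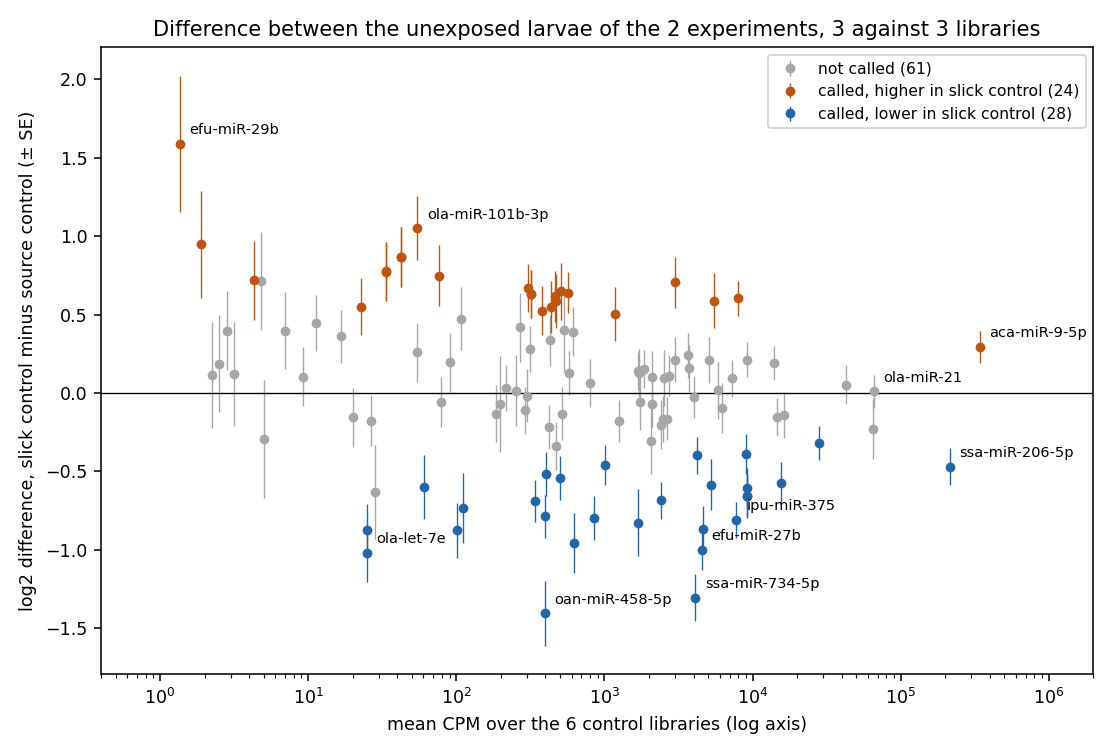
Log2 difference (slick control minus source control, ± SE from edgeR, 3 against 3 libraries) of the 113 tested names against their mean CPM over the 6 control libraries (log axis). Called names lie on both sides, 24 higher and 28 lower. The rarest called names, efu-miR-29b, hsa-miR-3074-5p and ssa-miR-1788-5p, are all higher. The most abundant called names, aca-miR-9-5p and ssa-miR-206-5p, lie on opposite sides of 0.

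The let-7 family was lower in the slick controls in all 5 of its tested names, which form 4 separate signals. The share called was 100%, beside 46% over all tested names. let-7 miRNAs accumulate as animals mature and restrain proliferation genes. ola-let-7g was at 3934, 3096 and 2778 CPM in the slick controls, against 6235, 6224 and 5401 CPM in the source controls, a log2 difference of -0.86 ± 0.15 (SE, adjusted p = 0.00196). mse-let-7a was at 8491, 5988 and 7044 CPM in the slick controls, against 11435, 11532 and 10952 CPM in the source controls, a difference of -0.66 ± 0.14 (SE, adjusted p = 0.00351); its near copy tca-let-7-5p was at -0.66 ± 0.14. No slick control reached the lowest source control. ssc-let-7i was at 1713, 1039 and 896 CPM in the slick controls, against 2359, 2127 and 1978 CPM in the source controls, with -0.83 ± 0.22 (SE, adjusted p = 0.00963), and 0.0578 without source control 2. The rare ola-let-7e had 20.1, 14.4 and 15 CPM in the slick controls, against 35.3, 34.9 and 29.5 CPM in the source controls and a log2 difference of -1.02 ± 0.19 (adjusted p = 0.00217). The median of the list was -0.83, beside 0.05 over all tested names. Under the totals of the whole tables all 5 stayed negative and 3 were called. Summed over all its names let-7 was not called (-0.78 ± 0.38, SE, adjusted p = 0.246, edgeR). By the highest count among its names in each library it was at -0.63 ± 0.15 (SE, adjusted p = 0.0567, edgeR). A robust edgeR fit of these highest counts, chosen after seeing the data, called it lower (adjusted p = 0.0137). Abundant let-7d names, listed in 1 table each, were not tested.

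ola-miR-430a, of the family that clears maternal messenger RNA in early zebrafish embryos, lay the other way. It was at 669, 678 and 740.2 CPM in the slick controls, against 445, 433 and 461.6 CPM in the source controls, a log2 difference of 0.64 ± 0.13 (SE, adjusted p = 0.00343), and leaving out any single library kept the call. The other shared name, ccr-miR-430, was at 0 in slick controls 2 and 3 and source control 3 and was not tested. A further name, hhi-miR-430a, listed for the source experiment alone, had 4600, 0 and 4222 counts there. Summed over all its names miR-430 was not called (-0.48 ± 0.48, SE, adjusted p = 0.607, edgeR). By the highest count among its names in each library it was at 0.15 ± 0.27 (SE, adjusted p = 0.817, edgeR).

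In muscle the dominant ssa-miR-206-5p was lower in the slick controls, and 2 other names were not called. It had 205404, 180087 and 156108 CPM in the slick controls, against 237355, 259554 and 252895 CPM in the source controls, a difference of -0.47 ± 0.12 (SE, adjusted p = 0.00731). Its adjusted p was 0.0792 without source control 2 and 0.0670 without source control 3, and 0.351 under whole-table totals. The striated muscle miRNA ggo-miR-499a was at 0.21 ± 0.15 and rno-miR-133b-5p at 0.42 ± 0.22, with overlapping groups.

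Of 11 tested names of the nervous system list 2 were higher and 4 lower in the slick controls, 54.5% called beside 46% over all tested names. aca-miR-9-5p had 394906, 397985 and 340606 CPM in the slick controls, against 330677, 294532 and 299303 CPM in the source controls, a small difference of 0.29 ± 0.10 (SE, adjusted p = 0.0357). Its adjusted p was 0.0861 without slick control 1, 0.131 without slick control 2, 0.122 without source control 2 and 0.125 without source control 3, 0.0713 under whole-table totals and 0.0630 with DESeq2. The neuronal dre-miR-124-4-5p was also higher (0.53 ± 0.16, adjusted p = 0.0170, and 0.0898 without slick control 3 and 0.0647 without source control 2), while ola-miR-124-5p was at 0.33 ± 0.16 and not called. The lower names included both miR-212 names and aca-miR-132-5p, of an activity-regulated neuronal cluster. aca-miR-212-5p was at 707, 564 and 589 CPM in the slick controls, against 1129, 1077 and 1027 CPM in the source controls, a difference of -0.80 ± 0.14 (SE, adjusted p = 0.00196). ssa-miR-212a-5p was at 521, 316 and 428.6 CPM in the slick controls, against 953, 762 and 738 CPM in the source controls, with -0.96 ± 0.19 (SE, adjusted p = 0.00312). Leaving out any single library kept both calls. aca-miR-132-5p was at -0.51 ± 0.14, with adjusted p of 0.0578 without source control 2 and 0.0734 without source control 3. The fourth lower name, mdo-miR-138, was at -0.73 ± 0.22, with adjusted p of 0.111 without source control 2 and 0.0721 without source control 3. Its second name xtr-miR-138, not tested, had 556, 412 and 761 counts in the slick controls, against 599, 0 and 0 in the source controls. Summed over its names miR-138 was at -0.07 ± 0.24 (SE, adjusted p = 0.937, edgeR). By the highest count among its names in each library it was at -0.71 ± 0.28 (SE, adjusted p = 0.145, edgeR). mdo-miR-128a-5p was not called, at -0.23 ± 0.19. The list's median was -0.22 and turned to 0.02 under whole-table totals, where 1 name was higher and 1 lower.

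All 4 tested miRNAs of eye and sensory organs were called (100%, beside 46% over all tested names), 3 lower and 1 higher in the slick controls. ola-miR-184-5p had 7246, 7912 and 6702 CPM in the slick controls, against 9973, 12579.8 and 10739.8 CPM in the source controls, a difference of -0.61 ± 0.13 (SE, adjusted p = 0.00351); the adjusted p was 0.0523 without source control 2. ola-miR-204 was at -0.39 ± 0.13 (adjusted p = 0.0277) and chi-miR-182 at -0.32 ± 0.11 (adjusted p = 0.0300). For miR-204 the adjusted p was 0.0506 without slick control 1, 0.0739 without source control 1, 0.111 without source control 2 and 0.125 without source control 3, and for miR-182 it was 0.0874 without slick control 3, 0.0906 without source control 1, 0.136 without source control 2 and 0.174 without source control 3. chi-miR-96, from the same cluster as miR-182, had 6119, 8615 and 5192 CPM in the slick controls, against 4955, 4173 and 4118 CPM in the source controls and went the other way, at 0.59 ± 0.18 (adjusted p = 0.0178, and 0.0839 without source control 2 and 0.0615 without source control 3). These 2 miRNAs of 1 cluster thus differed in opposite directions. Under whole-table totals chi-miR-96 was called higher and none of the 3 lower names was called.

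In the miR-23/24/27 cluster, whose miRNAs act in blood vessels among other tissues, 4 of 7 tested names were lower in the slick controls and 0 higher. The share called was 57.1%, beside 46% over all tested names. efu-miR-27b was at 2858, 2774 and 3447 CPM in the slick controls, against 6409.7, 5517 and 6207 CPM in the source controls, a difference of -1.0 ± 0.13 (SE, adjusted p = 0.000555). Every slick control lay far below every source control. oar-miR-23b was at 299.9, 282 and 298 CPM in the slick controls, against 540.2, 521 and 457.3 CPM in the source controls, with -0.79 ± 0.14 (SE, adjusted p = 0.00196). ssa-miR-23b-5p (-0.69 ± 0.13) and dre-miR-23a-3-5p (-0.54 ± 0.14) were the other lower names. The adjusted p of dre-miR-23a-3-5p was 0.0578 without source control 2. Under whole-table totals 1 of the 7 was called, efu-miR-27b. miR-24 was not called: fru-miR-24-5p was at 0.13 ± 0.14 and mdo-miR-24-3p at 0.40 ± 0.27, with adjusted p of 0.514 and 0.263. ola-miR-27d-3p was at -0.07 ± 0.31.

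The miR-17-92 family, which promotes proliferation, had 5 of 10 tested names higher and 1 lower in the slick controls. These 10 names form 9 separate signals, and 60% were called beside 46% over all tested names. oan-miR-20a-5p was at 4093, 2821 and 4257 CPM in the slick controls, against 2491, 2211 and 2143 CPM in the source controls, a difference of 0.71 ± 0.16 (SE, adjusted p = 0.00550). ola-miR-19b and its near copy ssa-miR-19c-4-5p were each at 0.63 ± 0.15, dre-miR-93 at 0.65 ± 0.18 and ola-miR-106a at 0.50 ± 0.17. The adjusted p of dre-miR-93 was 0.0569 without slick control 1, 0.0673 without slick control 3 and 0.0578 without source control 2, and that of ola-miR-106a 0.128 without slick control 1, 0.103 without slick control 3, 0.114 without source control 2 and 0.0721 without source control 3. sha-miR-92a was lower, at 13096, 10711 and 14032 CPM in the slick controls, against 18759, 17017 and 20474 CPM in the source controls, a difference of -0.57 ± 0.13 (SE, adjusted p = 0.00550), and 0.229 under whole-table totals. miR-92a and miR-19b are made from the same primary transcripts in vertebrates, and here they lay on opposite sides. ssa-miR-18a-5p (0.19 ± 0.11) and hsa-miR-25-5p (-0.09 ± 0.16) were not called. The median of the list was 0.35.

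Of 12 tested names of blood miRNAs 4 were higher and 1 lower in the slick controls, 41.7% called beside 46% over all tested names; 2 of the higher names are the same signal of miR-142. ssa-miR-144-3p, needed for red cell maturation in zebrafish, was at 351, 419 and 353 CPM in the slick controls, against 213, 229 and 263 CPM in the source controls, a difference of 0.67 ± 0.15 (SE, adjusted p = 0.00515). tgu-miR-142-5p of white cells, with the same counts as ola-miR-142, was at 47.8, 62.8 and 52.5 CPM in the slick controls, against 30.1, 24.1 and 35.5 CPM in the source controls, with 0.87 ± 0.19 (SE, adjusted p = 0.00420). Every slick control exceeded every source control for both. chi-miR-451-5p, the genomic neighbour of miR-144, was at 0.36 ± 0.17 and not called (adjusted p = 0.106). ola-miR-130c was the fourth higher name (0.55 ± 0.16), with adjusted p of 0.0874 without slick control 3, 0.0847 without source control 1 and 0.0792 without source control 2. ssa-miR-222a-5p was lower at -0.58 ± 0.16, a call lost with adjusted p of 0.121 without source control 2 and 0.0670 without source control 3. Its second name ipu-miR-222a, not tested, had 21308, 24571 and 28851 in the slick controls, against 22364, 0 and 0 in the source controls. Summed over its names miR-222 was not called (0.03 ± 0.12, SE, adjusted p = 0.937, edgeR). By the highest count among its names in each library it was at -0.56 ± 0.18 (SE, adjusted p = 0.0952, edgeR). The endothelial tgu-miR-126-5p (0.09 ± 0.12) and hsa-miR-130b-5p (0.02 ± 0.18) were not called.

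Of 8 tested names of the fish miRNA list 4 were lower and 2 higher in the slick controls, 75% called beside 46% over all tested names. Under whole-table totals 1 was lower and 2 were higher. This list held the widest gap among names over 1000 CPM. ssa-miR-734-5p was at 2699, 2149.8 and 2273 CPM in the slick controls, against 6768, 4895 and 5912 CPM in the source controls, a difference of -1.3 ± 0.15 (SE, adjusted p = 0.000328). ssa-miR-8159-5p was at 1899, 1849 and 1805 CPM in the slick controls, against 3091, 2995 and 2835 CPM in the source controls, with -0.68 ± 0.12 (SE, adjusted p = 0.00196). Its coefficient of variation was 2.52% in the slick and 4.35% in the source controls, and the call was lost under whole-table totals (adjusted p = 0.136). ola-miR-462 (-0.87 ± 0.16) and its cluster partner ola-miR-731 (-0.60 ± 0.20) were both lower, at under 100 CPM. The adjusted p of ola-miR-731 was 0.0530 without slick control 1, 0.0550 without slick control 3, 0.0507 without source control 1, 0.0948 without source control 2 and 0.118 without source control 3. The higher names, ccr-miR-722 (0.77 ± 0.19) and ssa-miR-722-5p (0.77 ± 0.19), share nearly all their counts. Under whole-table totals the adjusted p was 0.122 for ola-miR-462 and 0.407 for ola-miR-731. dre-miR-737-5p was at 0.47 ± 0.20 and not called.

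Among connective tissue names aca-miR-199a-5p was higher, at 8915, 9983 and 9786 CPM in the slick controls, against 6187, 6404 and 6297 CPM in the source controls, a difference of 0.60 ± 0.11 (SE, adjusted p = 0.00217). oan-miR-214-5p, made from the same transcript as miR-199a, was higher too (0.62 ± 0.17, adjusted p = 0.0114, and 0.0578 without source control 2). Its second name ola-miR-214, not tested, had 207, 0 and 354 counts in the slick controls, against 392, 421 and 338 in the source controls. Summed over its names miR-214 was not called (0.44 ± 0.18, SE, adjusted p = 0.192, edgeR). By the highest count among its names in each library it was at 0.63 ± 0.17 (SE, adjusted p = 0.0660, edgeR). oan-miR-145-5p of smooth muscle was at 0.14 ± 0.12 and not called. In the pancreas list ipu-miR-375 was at 5997, 5464 and 5515 CPM in the slick controls, against 9531, 9772 and 10452 CPM in the source controls, a difference of -0.81 ± 0.11 (SE, adjusted p = 0.000606), whereas the acinar tgu-miR-217-5p was at 0.15 ± 0.12 and not called. In the gut and liver list ssa-miR-194b-5p was lower (-0.87 ± 0.18, adjusted p = 0.00312, and 0.102 under whole-table totals) and ola-miR-194-5p was at -0.11 ± 0.15.

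Of 5 names from the Hox clusters 2 were lower, 40% called beside 46% over all tested names. Both were miR-196, with tgu-miR-196 at -0.40 ± 0.12 and hhi-miR-196 at -0.46 ± 0.13. The adjusted p of tgu-miR-196 was 0.0948 without source control 2 and 0.125 without source control 3, and that of hhi-miR-196 0.0529 without slick control 3, 0.0792 without source control 2 and 0.0866 without source control 3. Neither was called under whole-table totals. sha-miR-10b (0.11 ± 0.13) and mdo-miR-10b-5p (-0.17 ± 0.15) were not called. None of the 4 skin names was called, with pma-miR-203a-3p at -0.15 ± 0.12, sha-miR-200a at 0.21 ± 0.11 and cgr-miR-205 at 0.24 ± 0.14. ola-miR-21 was at 0.01 ± 0.10, the smallest absolute difference of the 113, and aca-miR-34b-5p, of a p53-induced family, at -0.63 ± 0.30. chi-miR-125b-5p and ola-miR-100 differed by -0.06 ± 0.18 and 0.03 ± 0.15. In the miR-181 family ola-miR-181a-5p, cfa-miR-181b and ssa-miR-181b-5p were between -0.14 and 0.05, and the rare hsa-miR-181b-2-3p was called higher (0.75 ± 0.19, and adjusted p = 0.0578 without source control 2). In the miR-15/16 list aca-miR-16a-5p was at 0.28 ± 0.15.

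oan-miR-458-5p, in none of the lists, had the lowest log2 difference of all, with 239, 148 and 267 CPM in the slick controls, against 585, 531 and 613 CPM in the source controls, a difference of -1.4 ± 0.21 (SE, adjusted p = 0.000811). In the list of miR-26, miR-29, miR-30 and miR-101 2 of 3 tested names were higher (66.7% called, beside 46% over all tested names). There oar-miR-30d was at -0.34 ± 0.15. ola-miR-101b-3p was at 55.4, 90.9 and 74.8 CPM in the slick controls, against 36.2, 30.8 and 39.9 CPM in the source controls, with 1.05 ± 0.20 (SE, adjusted p = 0.00288). Leaving out any single library kept both calls, and neither name had overlapping groups. The largest positive difference, 1.59 ± 0.43 for efu-miR-29b, stood at 1.93, 1.41 and 2.78 CPM in the slick controls, against 0.364, 0.881 and 0.775 CPM in the source controls, and its adjusted p was 0.0565 without slick control 3. hsa-miR-3074-5p (0.95 ± 0.34) and ssa-miR-1788-5p (0.72 ± 0.25) were also under 10 CPM, with adjusted p of 0.0569 without slick control 1, 0.124 without slick control 3, 0.154 without source control 1, 0.0855 without source control 2 and 0.0511 without source control 3 for the first and 0.0636 without slick control 1, 0.0874 without slick control 3, 0.121 without source control 2 and 0.0861 without source control 3 for the second. ipu-miR-3618 (0.59 ± 0.17) and ola-miR-460-5p (0.55 ± 0.18), also in none of the lists, complete the higher names. Their adjusted p was 0.0524 without slick control 3, 0.0553 without source control 1 and 0.0793 without source control 2 for ipu-miR-3618, and 0.0701 without source control 1, 0.0792 without source control 2 and 0.0614 without source control 3 for ola-miR-460-5p.

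**Figure D4:**
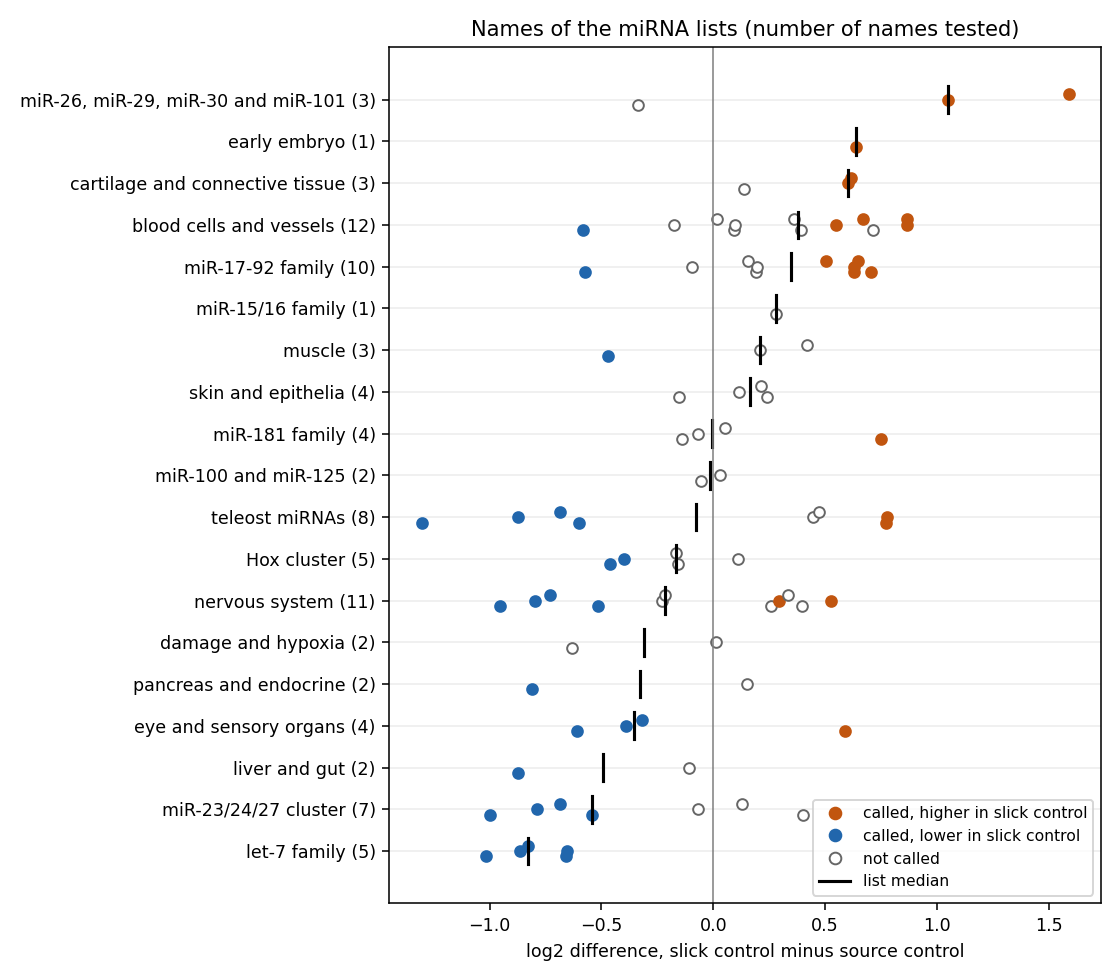
Log2 difference (slick control minus source control) of each tested name by miRNA list, with the number of names tested in parentheses; filled points are called, open points not, and bars are list medians. The let-7 list lies wholly below 0 with a median of -0.83, the miR-17-92 list mostly above with 0.35, and the sense organ, nerve and fish miRNA lists hold calls on both sides of 0.

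Some abundant names varied little among the 6 unexposed libraries in TMM-scaled CPM. The 6 steadiest names over 1000 CPM had a coefficient of variation of 5.42% to 9.32% over all 6. ola-miR-21 led them with 70596, 64101 and 63819.6 CPM in the slick controls, against 60916, 67961 and 68158 CPM in the source controls. oan-miR-145-5p (6.32%), tgu-miR-217-5p (7.23%), tgu-miR-126-5p (7.87%), ssa-miR-18a-5p (9.17%) and sha-miR-200a (9.32%) followed. They belong to smooth muscle, acinar pancreas, endothelium, a proliferation cluster and epithelium. The steadiness depends on the scaling. Under totals without aca-miR-9-5p and ssa-miR-206-5p, sha-miR-200a (0.36, adjusted p = 0.0274) and ssa-miR-18a-5p (0.34, adjusted p = 0.0292) were called higher in the slick controls by the same edgeR test. The other steady names were not called there. The median coefficient of variation over the 113 names was 23%.

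The same comparison was then made in the 18 oil-exposed libraries, which share no library with the controls. With dose rank as a factor, 39 of 102 names (38.2%) differed between the 9 slick and the 9 source libraries, 19 higher (18.6%) and 20 lower (19.6%). Under library totals the split was 10 higher and 24 lower. Oil and experiment cannot be told apart in that fit. Of the 47 names called between the controls and tested here, 43 had the same sign, 23 were called in the same direction and 0 in the opposite one. These 23 made up 23 of the 38 names called among exposed larvae and tested in both. Of the 54 names not called between the controls 31 had the same sign. Across the names tested in both (47 called between the controls and 54 not), the 2 log2 differences correlated with Pearson's r of 0.70 and Spearman's rho of 0.65, a description over names that share libraries and are no independent replicates. In the lowest dose groups alone (slick 1.25% against source 0.135%) 7 names were called.

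Of the 8 names with the largest absolute difference between the controls that were tested here, 6 were called in the same direction among exposed larvae. oan-miR-458-5p had a lowest, median and highest level of 142.1, 207 and 382 CPM in the slick-exposed libraries, against 428.8, 673 and 738 CPM in the source-exposed ones. Its log2 difference there was -1.41 ± 0.17 (adjusted p = 7.48e-06), beside -1.4 ± 0.21 between the controls. ssa-miR-734-5p differed by -1.14 ± 0.15 (adjusted p = 7.48e-06), ola-miR-101b-3p by 0.56 ± 0.16 (adjusted p = 0.00729) and efu-miR-27b by -0.84 ± 0.12 (adjusted p = 3.48e-05). ssa-miR-212a-5p differed by -1.07 ± 0.14 (adjusted p = 7.79e-06) and ssa-miR-194b-5p by -0.42 ± 0.12 (adjusted p = 0.0112). The exceptions were efu-miR-29b at 0.40 ± 0.26 (adjusted p = 0.219) and ola-let-7e at -0.32 ± 0.15 (adjusted p = 0.0845), both with the sign they had between the controls.

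Several eye, muscle and let-7 names called between the controls were not called among exposed larvae. ola-miR-184-5p differed by 0.28 ± 0.13 (adjusted p = 0.0848) and ola-miR-204 by 0.53 ± 0.25 (adjusted p = 0.0848). ssa-miR-206-5p was at 0.05 ± 0.20 (adjusted p = 0.846). All 3 signs were opposite to those between the controls. ola-let-7g was at -0.29 ± 0.13 (adjusted p = 0.0729) and sha-miR-92a at -0.14 ± 0.14 (adjusted p = 0.453). Of the 3 let-7 names tested in both, ssc-let-7i was called, at -0.46 ± 0.12 (adjusted p = 0.00671). Whether these differences changed with exposure was not tested.

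**Figure D5:**
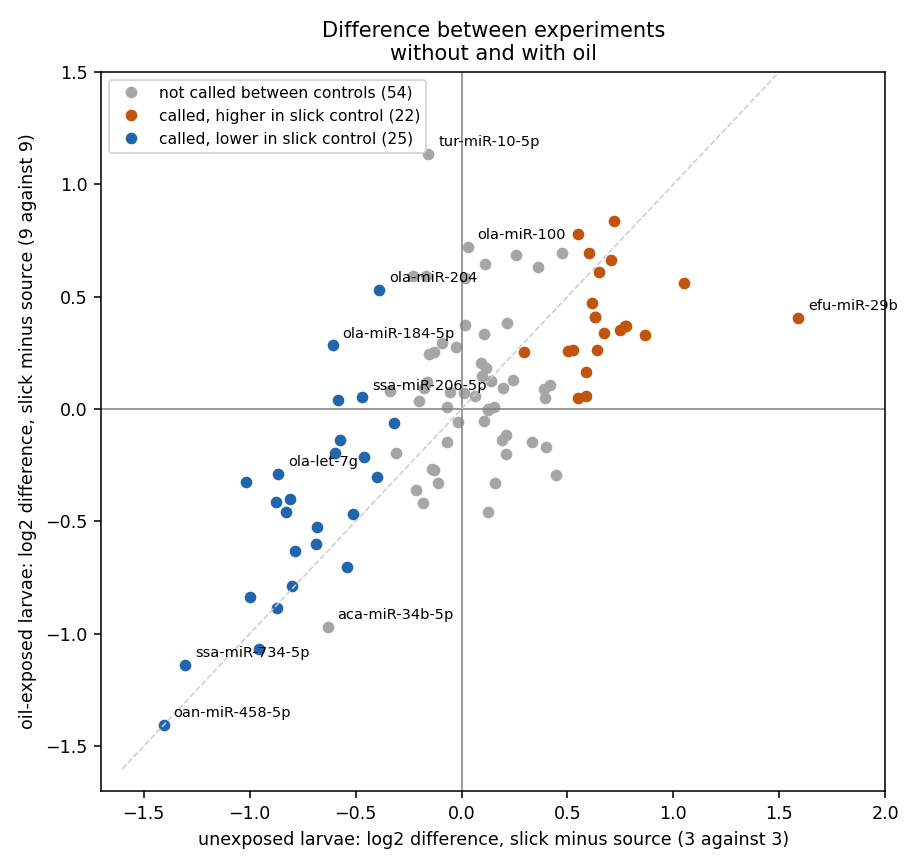
Log2 difference between the experiments (slick minus source) of the names tested in both, in unexposed larvae (x axis, 3 against 3 libraries) and in oil-exposed larvae (y axis, 9 against 9); the dashed line marks equal values. Of 47 names called between the controls 43 have the same sign on both axes, and the exceptions are ola-miR-184-5p, ola-miR-204, ssa-miR-206-5p and ssa-miR-222a-5p.

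In the main fit more names, 52, were called between the unexposed sets than at any oil dose against its own control. Whether the counts differ was not tested. The order depends on the fit. Between the unexposed sets 31 names were called under whole-table totals and 31 in 1 fit of all 24 libraries. Over all shared names 33 were called. These counts are below the 47 called at 0.54% source oil. In fits of the same form, each oil dose against its own control, 0 of 117, 0 of 117 and 6 of 109 names (5.5%) were called at 1.25, 2.50 and 5.00% slick oil. At 0.135, 0.27 and 0.54% source oil 0 of 114, 27 of 115 (23.5%) and 47 of 119 (39.5%) were called. The median absolute log2 difference was 0.40 between the unexposed sets, and between 0.14 and 0.28 in the 6 oil comparisons. The fits also differ in spread. Their common biological coefficient of variation was 14.8% between the unexposed sets. In order of dose it was 23.1%, 36.7% and 21.1% with slick oil and 11.4%, 13.5% and 12.1% with source oil. Source control 2, without which 28 names were called between the sets, is among the controls of the source oil fits. These fits share control libraries with the comparison of the controls, so their values are set side by side only.

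For several names the slick controls lay on the same side of the source controls as larvae exposed to 0.54% source oil did. ola-miR-184-5p differed by -0.61 ± 0.13 between the unexposed sets and by -1.1 ± 0.12 (adjusted p = 0.000991) with 0.54% source oil. For ola-let-7g the 2 values were -0.86 ± 0.15 and -0.48 ± 0.10 (adjusted p = 0.00696), and for ssa-miR-206-5p -0.47 ± 0.12 and -0.53 ± 0.11 (adjusted p = 0.00760). On the higher side they were 0.63 ± 0.15 and 0.78 ± 0.12 (adjusted p = 0.00399) for ola-miR-19b. The erythroid ssa-miR-144-3p went against this, at 0.67 ± 0.15 between the unexposed sets and -1.02 ± 0.12 (adjusted p = 0.000991) with 0.54% source oil. It was also lower with 5.00% slick oil against the slick controls, at -1.6 ± 0.20 (adjusted p = 0.00218). ssa-miR-734-5p, -1.3 ± 0.15 between the sets, was at 0.28 ± 0.19 (adjusted p = 0.268) with 0.54% source oil. The source controls enter both values of each pair with source oil, so a likeness between them is no support for either.

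To set names aside, counts were also summed over all names of a miRNA number, whatever the species prefix. Of the numbers tested 13 (12.3%) were called, 3 higher and 10 lower in the slick controls, with a common biological coefficient of variation of 109%, against 14.8% for the 113 names. Lower were miR-734 (-1.31 ± 0.14), miR-375 (-0.81 ± 0.09), miR-458 (-1.42 ± 0.22), miR-462, miR-8159, miR-212, miR-23 and miR-92, whose names are described above. miR-199, miR-19 and miR-20 were higher. miR-221 was called lower by its sum (-0.92 ± 0.18), where the source table lists ccr-miR-221 and gga-miR-221-5p with nearly the same counts and the slick table ccr-miR-221 alone. ccr-miR-221 by itself was not called, at 0.10 ± 0.18 (adjusted p = 0.681). The count of 13 numbers became 1 without slick control 3, 5 without source control 1, 2 without source control 2 and 1 without source control 3, and 12 to 16 without the others. It was 2 under library totals, 31 with DESeq2 and 0 with the replicate number as a block. Taking the highest count among the names of a number in each library, for numbers above 0 in all 6 libraries and with a robust fit (chosen after seeing the data), 23 of 89 (25.8%) were called, 11 higher and 12 lower.

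miR-22 had the widest gap of all numbers. The highest count among its names was 839, 1358 and 1515 in the slick controls, against 112470, 121980 and 98725 in the source controls, and it belongs to different names. The 3 slick values are those of ssa-miR-22b-5p, that of source control 1 is of dre-miR-22a-5p and those of source controls 2 and 3 are of ssa-miR-22a-5p. ssa-miR-22b-5p was not called between the sets (-0.13 ± 0.18, adjusted p = 0.581), and the miR-22a names were listed for the source experiment alone. Every listed name had counts in control 1, so the level of miR-22a in slick controls 2 and 3 is not known here. The fitted difference of this number is therefore not given as a fold.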

How the data were processed

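Small RNA libraries of pooled red drum larvae were read on a NextSeq 500 (series text). The authors deposited whole-number read counts per mature miRNA name, in 1 table per oil dose with its controls. Names carry prefixes of many species, and reads of 1 red drum miRNA may be split between names or counted under several; arms were not checked. Aligner, miRBase release and counting rule were not given in the sources used here. DESeq2 is named, with no version, in the submitters' processing notes, and its deposited tables were not used. Each count column matched 1 sample label, and 0 were without one.

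Control columns came from the highest dose table of each experiment. The main test was edgeR 4.0.16 in R 4.3.3 (TMM, glmQLFit, glmQLFTest) on counts of the 113 shared names counted in all 6 libraries, with at least 10 counts in at least 3, and Benjamini-Hochberg adjusted p under 0.05 was a call. The SE is the absolute log2 difference over the square root of F. The fits were tested on simulated data. Oil doses were fitted against their own controls within their tables, and exposed libraries over names counted in all 18. Alternatives were DESeq2 1.42.0, other scalings, filters and tables, a replicate block, and each library left out. Near-identical names differ by at most 2% in all 6 libraries.

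The miRNA lists, by miRNA number, the members and the tests were chosen with earlier results of these data known. Names given are the 20 with the largest share, the 12 with the largest difference in each direction, the 3 most abundant of each list, the 10 leading names at 0, the 6 leading names of each table alone, the 10 leading miRNA numbers in each direction and the 6 steadiest names over 1000 CPM; other called names, and further list members, were added after their values were seen. Total counts were 6778108 to 9404688 per library. Limits for a count of 0 cover counting error only, since reads are not independent molecules. In groups of 3 no test for outlying libraries was run.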

Additional observations from a re-analysis of the deposited data

How the results depend on the processing

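The count of 52 names called between the controls was 31 under the totals of all names of each table, 33 over all shared names with or without the count filter, and 31 in 1 fit of all 24 libraries. It ranged from 28 to 55 with 1 control library left out. It was 48 to 54 under the other alternatives, namely DESeq2 (48), totals of the tested names, the 100-count filter, the robust fit, control columns of the other tables, 1 name per near-identical set and totals without the 2 leading names. The 13 miRNA numbers called became 2 under library totals, 31 with DESeq2, 23 with the highest count per library among the names of numbers above 0 in all libraries in a robust fit, and 1 to 16 with 1 library left out. The 39 names called between exposed sets became 7 in the lowest doses alone, and 31 to 47 with 1 library left out. The 20 leading names held 73.9% over all names of each table in place of 87.8%, and 87.5% to 88.1% with 1 library left out. The cause of these shifts was not tested.

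With the replicate number as a block 52 names, 0 miRNA numbers and 39 exposed names were called. Same-numbered controls of the 2 sets did not all deviate together (r of 0.21, 0.01 and -0.04 over the tested names), and slick control 2 correlated best with source control 3, so the replicate numbers were not used as pairs. Zeros of names left out of that check fell in the same numbers of both sets for 8 of the 12 names at 0 in both. No listed name was at 0 in control 1, so zeros could fall in controls 2 and 3 alone. Such matches therefore cannot decide whether the numbers are pairs.

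Over the 65 miRNAs followed in 1221 refits the direction and side of the threshold held in 1092, the call was lost in 93 and gained in 8, and the sign turned in 28. All 28 were names not called. Under whole-table totals the log2 difference was 0.075 for pma-miR-203a-3p, 0.14 for ola-miR-194-5p, 0.16 for hsa-miR-25-5p, 0.079 for mdo-miR-10b-5p, 0.19 for chi-miR-125b-5p, 0.077 for cfa-miR-181b and 0.14 for ssa-miR-181b-5p. Under totals without the 2 leading names the log2 difference was 0.033 for ola-miR-194-5p, 0.046 for hsa-miR-25-5p, 0.092 for chi-miR-125b-5p, 0.0064 for cfa-miR-181b and 0.080 for ssa-miR-181b-5p. Under totals of the tested names the log2 difference was 0.026 for chi-miR-125b-5p. With DESeq2 the log2 difference was -0.0029 for hsa-miR-130b-5p and -0.0031 for ola-miR-21. In the block fit the log2 difference was -0.0033 for hsa-miR-130b-5p. With 1 library left out it ran from -0.21 to 0.13 for hsa-miR-130b-5p, -0.18 to 0.087 for hsa-miR-25-5p, -0.30 to 0.092 for chi-miR-125b-5p, -0.0056 to 0.15 for ola-miR-100, -0.044 to 0.18 for ola-miR-181a-5p, -0.26 to 0.021 for cfa-miR-181b, -0.20 to 0.088 for ssa-miR-181b-5p and -0.041 to 0.074 for ola-miR-21.

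Each set has 3 libraries, and names under 10 CPM rest on few counts. A share of 0 is bounded by 3 counts per library.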

Other observations

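Among exposed larvae 15 of the 54 names not called between the controls differed between slick and source experiments. Over all names tested in exposed larvae 39 of 102 (38.2%) differed, and of the 47 called between the controls 23 did. Names not called between the controls were thus called less often than the background. The Hox-linked sha-miR-10b differed by 0.64 ± 0.17 (adjusted p = 0.00668) in exposed larvae, beside 0.11 ± 0.13 between the controls, and mdo-miR-10b-5p by 0.59 ± 0.20 (adjusted p = 0.0259), beside -0.17 ± 0.15. ola-miR-100, of the miR-99/100 family, differed by 0.72 ± 0.12 (adjusted p = 9.32e-05), beside 0.03 ± 0.15. The neuronal mdo-miR-128a-5p differed by 0.59 ± 0.22 (adjusted p = 0.0350), beside -0.23 ± 0.19. The p53-linked aca-miR-34b-5p was lower among exposed slick larvae at -0.97 ± 0.18 (adjusted p = 0.000247), beside -0.63 ± 0.30 between the controls, and the erythroid chi-miR-451-5p was higher at 0.63 ± 0.16 (adjusted p = 0.00407), beside 0.36 ± 0.17. Whether the exposed and unexposed differences differ was not tested for these names, which were chosen after their values were seen.

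The widest spread within the slick controls among names over 1000 CPM was that of ssc-let-7i, with a coefficient of variation of 35.9%. ipu-miR-107b followed with 32.5%, at 2458, 1261 and 1816 CPM in the slick controls, against 2421, 2432 and 1997 CPM in the source controls. Within the source controls it was that of ssa-miR-222a-5p, with 22.7%. mdo-miR-128a-5p was at 45906, 77057 and 58247 CPM in the slick controls, against 54264, 82709.9 and 75154 CPM in the source controls, and control 1 was the lowest library of both sets.

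The counts of the control libraries stand in 3 deposited tables per experiment. Those of controls 2 and 3 were the same in all, while control 1 differed at 7 names in the slick and 3 in the source tables. The widest gaps were those of ola-miR-27d-3p in slick control 1, with 572 counts in the table used here and 1130 in the others, and of sha-miR-135a in source control 1, with 1929 and 752. With the control columns of any other dose 53 names were called between the sets.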
